A study of Rattus norvegicus with 6 samples.

Results

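The genes described here encode the laminin chains, the proteins that tie laminin into the basement membrane, and the integrin receptors that bind it and other ligands. Members were chosen by symbol in the array annotation: every Lama, Lamb, Lamc, Itga and Itgb gene together with Nid1, Nid2, Hspg2 and Agrn. There were 36 such genes among the 14217 genes that the annotation names with a single symbol. They comprised 10 laminin chains, 4 linker genes (the nidogens, perlecan and agrin) and 22 integrin subunits. Each gene was read from the probe set with the highest mean log2 signal.

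Ovaries were taken from 4-day-old female Sprague-Dawley rats and cultured whole for 48 h. The control group received no factor, and the NT3 group received recombinant human NT3 at 50 ng/ml, a neurotrophin whose main receptor is the product of Ntrk3. The medium of both groups contained BSA, albumax, ascorbic acid, transferrin and antibiotics. Each group had 3 samples, each pooled from 2 to 3 ovaries and hybridised to 1 array. The labels name the samples biological replicates without stating that animals or litters were separate, and p-values here cover only the spread between these samples. The series title concerns the passage of primordial follicles to the primary stage. Markers of the labelled tissue were present: the zona pellucida gene Zp3 had signals of 3544.4 to 4500.5 and the gonadal transcription factor gene Wt1 signals of 2148.3 to 2633.4.

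Laminins are trimers of an alpha, a beta and a gamma chain that assemble into sheets beneath epithelia and around muscle, vessels and nerve. Nidogens and perlecan join these sheets to the type IV collagen network, and cells attach to them through integrins, each a pair of an alpha and a beta subunit. In the ovary a basement membrane encloses the follicle and separates its granulosa cells from the stroma and vessels. A signal from whole ovaries does not say which cells hold the transcript, and fewer cells of a type cannot be told apart from less RNA per cell.

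The arrays were alike in overall level, with a median signal of 69.0 to 75.0. Control replicate 2 stood apart in its RNA measures. Its ratio of 3′ to 5′ signal was 6.83 for beta-actin, against 2.42 to 2.91 on the other arrays, and 1.70 for Gapdh, against 1.09 to 1.25. Among the other arrays both ratios were also higher in all 3 NT3 samples than in control replicates 1 and 3. The part of RNA quality in the differences below was not tested, and values without control replicate 2 are given beside each member whose difference it moved by more than 1.5 times or turned in sign.

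Of the 36 genes, 28 had a mean signal above the filter of 41.3 and were tested, and 8 lay below it by their mean. None of them differed between NT3 and control by limma at an adjusted p under 0.05, and across all 10600 genes tested the share called was 0%. The lowest adjusted p among the 28 genes was 1.00, and an unadjusted limma p under 0.05 occurred in 0 of them, compared with 1.17% of all genes. The 95% intervals of the fold differences, taken gene by gene, lay between 0.607 (Hspg2) and 2.06 (Itgb4). Each value below is a deposited signal in arbitrary units, or a log2 difference, NT3 minus control. Signals of different genes come from different probes and are not compared with each other.

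**Figure D1:**
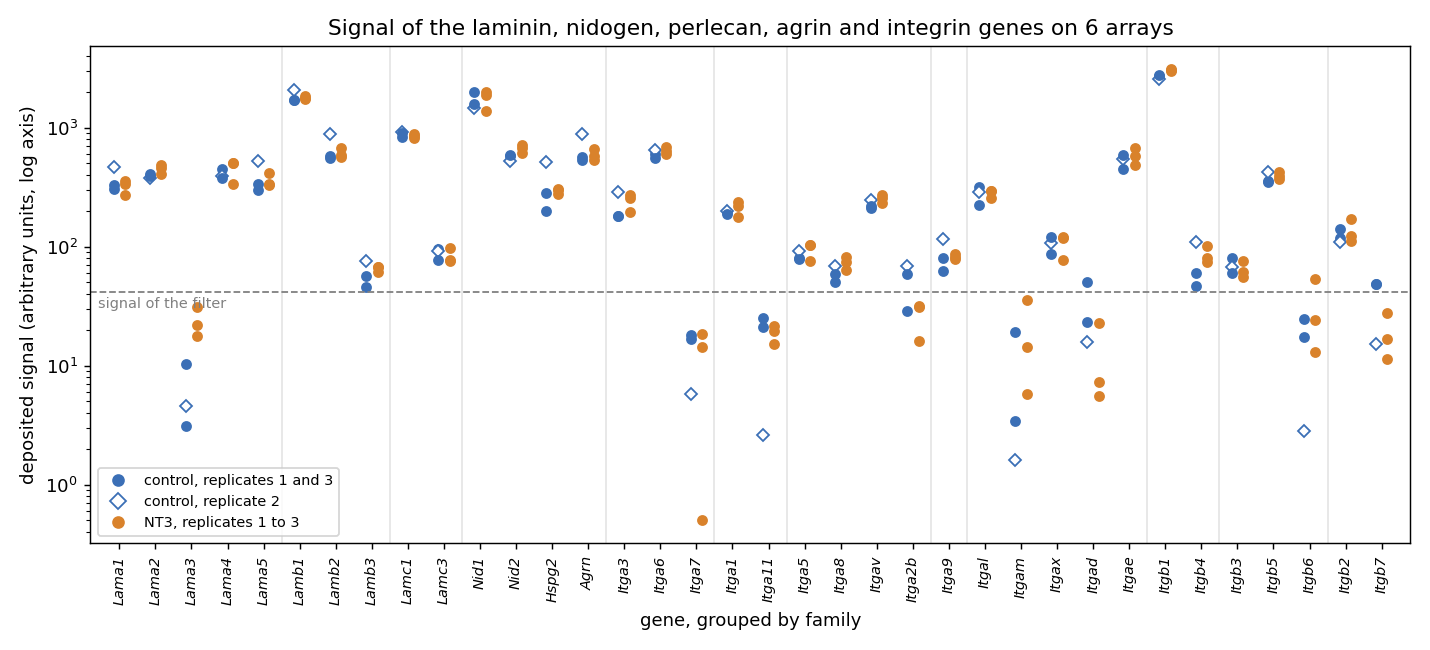
Deposited signal (arbitrary units, log axis) of the 36 genes on each of the 6 arrays, grouped by family, with control samples to the left and NT3 samples to the right of each gene. Control replicate 2 is drawn as an open diamond and the dashed line marks the filter at a mean signal of 41.3. For most genes the control and NT3 points overlap.

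Most laminin alpha chains with a measurable signal showed no separation of the groups. Lama1 encodes the alpha chain typical of embryonic and epithelial basement membranes. In the order of the replicate numbers, here and below, its signal was 303.2, 466.5 and 326.4 in control and 271.2, 332.4 and 352.6 in NT3. Control replicate 2 was the highest array and the other 5 intermixed. Its log2 difference of -0.18 ± 0.18 (SE) was the lowest of the 28 genes, and it was 0.0100 once control replicate 2 was left out.

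Lama5, which encodes a widely distributed alpha chain of epithelial and vascular basement membranes, also had its highest signal in control replicate 2. The values were 298.5, 522.4 and 332.5 in control and 337.7, 413.1 and 326.2 in NT3. NT3 replicate 2 came next and the other 4 arrays intermixed, and the log2 difference of -0.063 ± 0.21 became 0.18 without control replicate 2. Lama4 encodes the alpha chain of vessel walls. It had 444.2, 392.5 and 378.7 in control against 501.1, 334.7 and 502.6 in NT3, so that NT3 replicates included both the highest and the lowest arrays, and the log2 difference was 0.12 ± 0.17.

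Lama2, the alpha chain gene of muscle and peripheral nerve basement membranes, was the laminin gene above the filter whose groups did not overlap. Its signal was 404.3, 380.1 and 393.1 in control and 458.8, 405.5 and 480.7 in NT3. NT3 replicate 2 exceeded the highest control only narrowly. The fit gave a log2 difference of 0.19 ± 0.11, with an unadjusted limma p of 0.134 and an adjusted p of 1.00. Without control replicate 2 the difference was 0.17. Lama3, the alpha chain gene of the epithelial anchoring laminin, lay below the filter in every sample. It had 10.4, 4.6 and 3.1 in control and 31.2, 21.8 and 17.7 in NT3, which do not overlap but are all under the filter signal. In the fit with no filter its log2 difference was 2.1 ± 0.61, with an unadjusted limma p of 0.00677, and its adjusted p was 1.00.

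The beta and gamma chain genes all had overlapping groups. Lamb1 encodes the beta chain found in most laminins, and its signal was 1714.7, 2047.6 and 1709.1 in control and 1724.6, 1752.8 and 1848.9 in NT3. Its log2 difference was -0.034 ± 0.10, with a fold interval of 0.829 to 1.15. Lamb2 encodes the beta chain known from the kidney filter and the neuromuscular junction. It had 558.8, 875.0 and 571.2 in control and 593.2, 565.3 and 669.8 in NT3, a log2 difference of -0.10 ± 0.18. In both genes control replicate 2 was the highest array, and the log2 difference turned from below 0 to 0.052 for Lamb1 and 0.11 for Lamb2 without it.

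Lamc1, which encodes the gamma chain of most laminins, had 839.9, 908.2 and 894.3 in control and 875.6, 848.4 and 816.1 in NT3. On the probe set in use its arrays lay closer together than those of any other tested gene in the set, with the highest 1.11 times the lowest. Its log2 difference was -0.057 ± 0.095, or -0.034 without control replicate 2, and the fold interval was 0.828 to 1.12. The other tested probe set of Lamc1 had a log2 difference of 0.24 ± 0.28, and -0.14 without control replicate 2. Lamb3, a partner of Lama3 in the anchoring laminin, and Lamc3 had low signals of 45.3 to 75.7 and 75.7 to 96.8 and log2 differences of 0.17 ± 0.24 and -0.081 ± 0.19. Without control replicate 2 these were 0.37 for Lamb3 and -0.047 for Lamc3. Over the 9 laminin chains tested, 3 were higher in NT3 and 6 were lower, and the median log2 difference was -0.057. Without control replicate 2, 7 were higher and 2 lower, with a median of 0.096. Control replicate 2 was the highest array for 6 of the 9 chains, where it was the highest for 35.8% of all genes. It was the highest for 3 of the 15 tested integrin subunits and for 11 of the 28 tested members, or 39.3%.

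Among the linker genes, the nidogen gene Nid2 had non-overlapping groups. Its product bridges laminin and type IV collagen. The signal was 580.5, 521.6 and 588.6 in control and 678.3, 719.1 and 607.6 in NT3, with every NT3 array above every control array. The mean was 564 ± 36.6 in control and 668 ± 56.4 in NT3 (SD, n = 3). This is a log2 difference of 0.24 ± 0.11, with an unadjusted limma p of 0.0576 and an adjusted p of 1.00. It was 0.19 without control replicate 2, the lowest array for this gene. The annotation also lists 5 probe sets for loci related to Nid2, and whether the Nid2 probe set reads them was not tested.

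Nid1, the other nidogen gene, did not share the separation of the groups seen for Nid2. Its signal was 1985.0, 1450.8 and 1583.5 in control and 1992.2, 1366.0 and 1860.9 in NT3. The groups overlapped throughout, and the arrays numbered 1 were the highest of their group in both conditions. Its log2 difference was 0.050 ± 0.17, and -0.046 without control replicate 2. The other tested probe set of Nid1 had a log2 difference of -0.23 ± 0.40, and -0.77 without control replicate 2.

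Perlecan and agrin are large heparan sulfate proteoglycans of the basement membrane, agrin being known for clustering acetylcholine receptors at the neuromuscular junction. The perlecan gene Hspg2 had 200.4, 513.0 and 284.2 in control and 300.5, 304.8 and 276.5 in NT3. Its control samples spanned the widest range of the 28 genes, from the lowest array to the highest, 2.56-fold apart, while the NT3 samples lay close together. The difference was -0.069 ± 0.29 on the log2 scale, and 0.30 without control replicate 2. The agrin gene Agrn had 566.7, 879.6 and 534.2 in control and 531.4, 656.2 and 573.5 in NT3. Here too control replicate 2 was the highest array, and the log2 difference was -0.14 ± 0.19 with it and 0.088 without it.

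The integrin genes leaned to a higher signal in NT3 without any member passing the test. Of the 15 tested subunits, 13 were higher in NT3 and 2 were lower, and their median log2 difference was 0.12. Over all 10600 genes tested, 47.4% were higher in NT3 and the median was -0.0075. The integrin median was 0.16 without control replicate 2 and between 0.087 and 0.16 when single arrays were left out. Relative to each gene's own mean, it was -0.12, 0.054 and -0.14 in the controls and 0.099, 0.16 and -0.052 in NT3. Control replicate 2 thus lay above NT3 replicate 3, and the groups overlapped for the integrins. Markers of ovarian stroma also leaned to NT3: 6 of 6 were higher there, with a median log2 difference of 0.14. Without control replicate 2 it was 5 of 6, with a median of 0.11, and limma called 0 of the 6. Summed over the stroma markers, the signal was 25661 to 26598 in control and 26973 to 29234 in NT3. Other marker lists leaned either way. The median was 0.14 for leukocyte, 0.11 for smooth muscle and pericyte and 0.040 for granulosa markers. It was -0.10 for endothelial, -0.084 for oocyte and -0.040 for surface epithelium markers, and -0.022 for the 1 tested platelet marker. The part of these cell types in the integrin differences was not tested.

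Itgb1 encodes the beta subunit shared by most matrix-binding integrins, the laminin and collagen receptors among them. Its signal was 2688.0, 2554.0 and 2770.4 in control and 3129.2, 3000.8 and 3041.9 in NT3. Every NT3 array lay above every control array, and both groups were tight, at 2671 ± 109 in control and 3057 ± 65.6 in NT3 (SD, n = 3). On the log2 scale the difference was 0.20 ± 0.087, with the lowest unadjusted limma p of the set, 0.0506, an adjusted p of 1.00 and a fold interval of 1.00 to 1.31. When replicate numbers entered as a block, Itgb1 was the only member with an unadjusted limma p under 0.05 (0.0391), which 2.03% of all genes had in that fit. With the block and without control replicate 2, NT3 replicate 2 has no partner, and the fit rests on the pairs numbered 1 and 3. In that fit the unadjusted limma p of Itgb1 was 0.0694. There 3 other members were below 0.05, Lama4, Itgb4 and Lama2, against 4.36% of all genes. With array weights there were 4 such members, Itgb4, Itga3, Itgb1 and Nid2, against 3.00% of all genes. The difference was 0.16 without control replicate 2, the lowest array. The other tested probe set of Itgb1 had 1329.6, 1052.1 and 1408.9 in control and 1546.4, 1370.8 and 1388.5 in NT3. Its log2 difference was also positive, at 0.19 ± 0.13, but its groups overlapped, and without control replicate 2 it was 0.066.

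Itgb4 pairs with Itga6 in hemidesmosomes, which anchor epithelial cells to laminin. Its signal was low, with 46.4, 108.4 and 59.4 in the controls and 80.5, 100.7 and 74.3 in NT3. Control replicate 2 exceeded all NT3 arrays, while the other controls lay below all of them. At 0.34 ± 0.31 it had the largest log2 difference of the 28 genes, and 0.69 without control replicate 2. The unadjusted limma p was then 0.0138, with an adjusted p of 1.00. Itga3, which encodes a laminin-binding alpha subunit, also had control replicate 2 above all NT3 arrays and the other controls below them. It had 180.4, 285.3 and 179.8 in control and 256.6, 270.1 and 195.7 in NT3, with log2 differences of 0.18 ± 0.21 and, without control replicate 2, 0.41. In that fit the unadjusted p was 0.0317. These 2 were the members with an unadjusted p under 0.05 there, where 2.69% of all genes had one and 0% had an adjusted p under 0.05.

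Summed over the 6 annotated markers of surface epithelium, the signal was 11441 in control replicate 2, 7205 to 8502 in the other controls, and 7574 to 11153 in NT3. Control replicate 2 was the highest array for 4 of the 6, and the keratin gene Krt19 alone gave 7363.3 of its sum. All 6 lay above the filter, with a median log2 difference of -0.040, or 0.14 without control replicate 2. Control replicate 2 also had the highest summed signal for smooth muscle and pericyte markers, at 1175.7. The other controls had 688.7 to 811.1 there, and NT3 had 698.5 to 1078.8. Its sum was likewise the highest for endothelial, granulosa and platelet markers, but not for oocyte, leukocyte or stroma markers. Gene by gene, it was the highest array for 3 of the 6 tested smooth muscle and pericyte markers. The same held for 2 of the 7 endothelial markers and for 1 of the 5 granulosa markers, Fst. In control replicate 2, Fst gave 2155.2 of the granulosa sum of 5637.8, and Pf4 gave 449.0 of the platelet sum of 482.9. The part of these cell types in the differences of Itgb4 and Itga3 was not tested.

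Itga6, the partner of both Itgb1 and Itgb4 in laminin receptors, had 594.0, 649.1 and 556.2 in control and 634.9, 690.1 and 596.6 in NT3. The groups overlapped, but in each pair of arrays with the same number the NT3 array was the higher one. The fit gave 0.095 ± 0.11 on the log2 scale, or 0.15 without control replicate 2, and with the replicate block the unadjusted limma p was 0.347. One of its other tested probe sets had 83.6, 48.8 and 105.5 in control and 104.8, 130.3 and 118.5 in NT3, with a log2 difference of 0.64 ± 0.28 at an unadjusted limma p of 0.0483 and 0.32 without control replicate 2. The remaining tested probe set of Itga6 had a log2 difference of 0.29 ± 0.35 at an unadjusted limma p of 0.425. It was -0.084 without control replicate 2. Itga7, the laminin receptor subunit of muscle, lay below the filter at 0.5 to 18.5.

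The alpha subunits that bind collagen or RGD motifs had overlapping groups. Itga1, a subunit of collagen receptors, had 194.6, 198.3 and 186.7 in control and 237.9, 217.3 and 178.3 in NT3. The control arrays were close together and the NT3 arrays lay on both sides of them, with a log2 difference of 0.12 ± 0.15. Itgav encodes the alpha subunit of vitronectin receptors and had 209.0, 246.0 and 220.7 in control and 230.3, 254.8 and 269.8 in NT3. Its log2 difference was 0.16 ± 0.13, with 2 of the NT3 arrays above all controls and each NT3 array above the control of the same number. With the replicate block its unadjusted limma p was 0.244. Itga8, a receptor subunit for nephronectin, had 50.0, 68.3 and 58.3 in control and 73.8, 80.9 and 63.8 in NT3. Only control replicate 2 overlapped the NT3 group, and the log2 difference was 0.31 ± 0.21, or 0.43 without it. Here too the NT3 array was the higher one in each numbered pair, and the unadjusted limma p with the block was 0.176.

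Itga5, the fibronectin receptor subunit, and Itga9, a subunit that binds tenascin C and VCAM1, had signals of 76.2 to 103.5 and 62.7 to 114.8. Their log2 differences were 0.16 ± 0.20 and -0.017 ± 0.24, and that of Itga9 was 0.22 without control replicate 2, its highest array. Itga11, a fibrillar collagen receptor subunit, lay below the filter at 2.6 to 25.2. Neither of the tested beta partners of Itgav was called by limma. Itgb5 had 352.6, 419.9 and 348.4 in control and 422.9, 371.6 and 394.2 in NT3, with overlapping groups and a log2 difference of 0.088 ± 0.12, or 0.17 without control replicate 2. Itgb3 had 79.8, 67.0 and 60.3 in control and 75.7, 55.8 and 60.7 in NT3, with overlapping groups and a log2 difference of -0.11 ± 0.22. Itgb6, the epithelial partner, lay below the filter at 2.8 to 53.5.

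Integrins of leukocytes pair one of several alpha subunits with Itgb2, or Itgae with Itgb7. Itgb2 had 118.9, 108.2 and 139.2 in control and 111.3, 170.8 and 121.7 in NT3. NT3 replicate 2 was its highest array, the other 5 intermixed, and the log2 difference was 0.12 ± 0.20. It was -0.061 without NT3 replicate 2 and 0.040 without control replicate 2. Itgal, the LFA-1 subunit, and Itgax, a subunit of dendritic cells and macrophages, had 224.7 to 314.4 and 77.8 to 121.0, with log2 differences of 0.045 ± 0.15 and 0.0021 ± 0.23, which were 0.081 and 0.030 without control replicate 2. Itgae, whose product binds E-cadherin, had 447.6 to 583.2 in control and 482.9 to 675.4 in NT3, with 0.13 ± 0.15.

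The 12 leukocyte markers all lay above the filter. Their summed signal was 2962 to 3529 in control and 2932 to 3815 in NT3, and 9 were higher and 3 lower in NT3, with none called by limma. Their part in the leukocyte integrin signals was not tested. Itgam, Itgad and Itgb7, further leukocyte subunits, lay below the filter, at 1.6 to 35.7, 5.5 to 50.7 and 11.4 to 48.9. Itga2b, the platelet integrin subunit, also lay below it, with 28.6, 68.4 and 58.5 in the controls and 30.8, 31.7 and 16.2 in NT3. Of the 4 annotated platelet markers 3 were below the filter as well, and the chemokine gene Pf4 had 290.0 to 449.0.

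**Figure D2:**
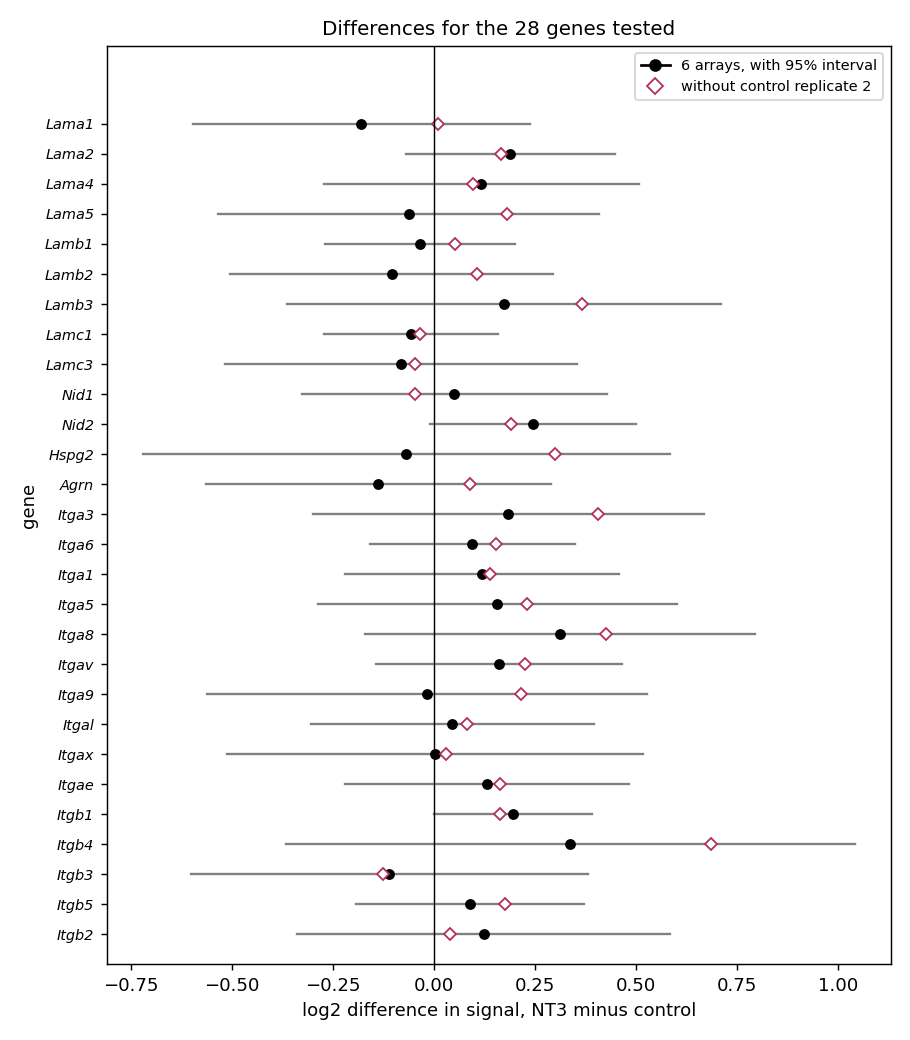
Log2 difference in signal, NT3 minus control, for the 28 genes tested, with the 95% interval of the fit over 6 arrays (black) and the value without control replicate 2 (open diamonds). The intervals of all 28 genes include 0, and that of Itgb1 has its lower bound closest to it, at 1.00-fold.

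Across the whole set, 18 of the 28 genes were higher and 10 lower in NT3, and the median log2 difference was 0.092 against -0.0075 for all genes tested. Groups did not overlap for 3 of the 28 genes, Lama2, Nid2 and Itgb1, each with the higher signal in NT3, where 2.41% of all genes were separated in that direction and 3.33% in the other. Taken by replicate number, 6 of the 28 genes were higher in NT3 in all 3 pairs, Itga6, Itgav and Itga8 besides those 3, and 0 were lower in all 3, where 9.69% and 11.6% of all genes were. Relative to each gene's own mean, the median of the set was -0.10, 0.070 and -0.12 in the controls and 0.095, 0.092 and -0.022 in NT3. Control replicate 2 thus lay above NT3 replicate 3, and the groups overlapped. Without control replicate 2, 24 genes were higher and 4 lower, where 52.5% of all genes were higher, and the median was 0.16. The sign turned for 8 of the 28 genes, 7 of them from lower to higher and 1, Nid1, from higher to lower. Leaving out NT3 replicate 2 gave a median of 0.026, NT3 replicate 1 one of 0.034, control replicate 1 one of 0.061 and control replicate 3 one of 0.056.

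For 6 of the genes more than 1 probe set was tested, and control replicate 2 read differently on them. Both tested probe sets of Lamc1 targeted the same gene, yet the one in use put control replicate 2 at 908.2, above the other arrays at 816.1 to 894.3. The other put it at 121.7, below the other arrays at 226.6 to 273.7. For Nid1 the second probe set had 90.1 in control replicate 2 and 146.7 to 332.9 elsewhere. Among the 8 second probe sets of these genes, control replicate 2 was the lowest of the 6 arrays in 6, where it was the lowest in 44.9% of the second probe sets of all genes. In all 8 it lay lower, relative to the other arrays, than in the probe set in use, which held for 67.1% of second probe sets over all genes. The high 3′ to 5′ ratios belong to the same array, and their part in these readings was not tested. The log2 difference had the same sign in 5 of the 8 second probe sets as in the probe set in use.

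**Figure D3:**
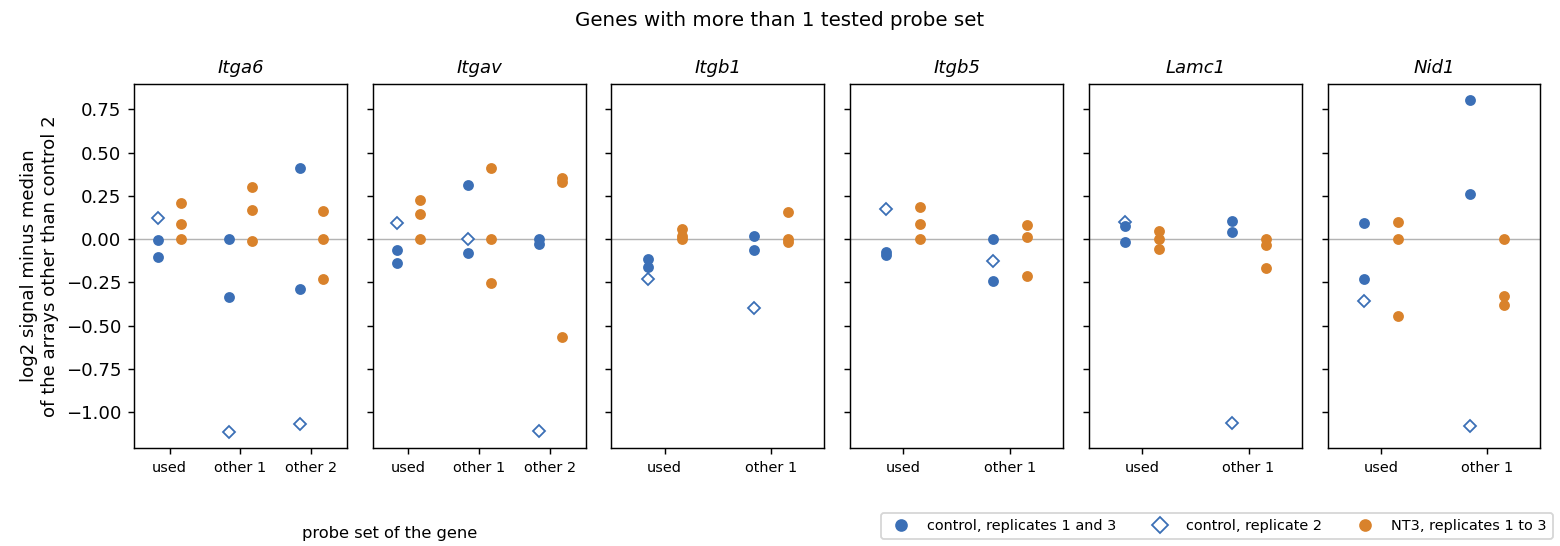
Log2 signal relative to the median of the arrays other than control replicate 2, for the 6 genes with more than 1 tested probe set, in the probe set in use and the others. Control replicate 2 (open diamonds) is the lowest array in 6 of the 8 other probe sets, including that of Lamc1, for which it is the highest array in the probe set in use.

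The partners of these proteins gave no called gene either. Further lists were set beside the members: basement membrane partners, laminin receptors other than integrins, other integrin ligands, and integrin adaptors with focal adhesion genes. They held 113 genes, of which 102 were annotated and 85 tested. By limma 0 of the 85 had an adjusted p under 0.05 and 1 had an unadjusted p under 0.05, against 0% and 1.17% of all genes. That gene was Tnc, which encodes tenascin C, a ligand of several integrins. It had 115.3, 130.3 and 132.3 in control and 195.8, 189.2 and 160.0 in NT3, with every NT3 array above every control array, a log2 difference of 0.53 ± 0.15 and an adjusted p of 1.00.

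Of the 16 tested basement membrane partners, 9 were higher and 7 lower in NT3, with a median of 0.051. Fbln1, a gene for a fibulin that binds laminin and nidogen, had 416.7, 408.5 and 401.8 in control and 470.4, 451.5 and 454.5 in NT3. Both groups were tight and did not overlap, and the log2 difference was 0.17 ± 0.10, with an unadjusted limma p of 0.141 and an adjusted p of 1.00. Of the 9 tested laminin receptors other than integrins, 7 were higher and 2 lower, with a median of 0.063. The syndecan genes Sdc3 and Sdc2, whose products are heparan sulfate proteoglycans of the cell surface, had the lowest p-values among them, with log2 differences of 0.29 ± 0.37 and 0.064 ± 0.093. That of Sdc3 was 0.72 without control replicate 2.

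Of the 20 tested other ligands, 15 were higher and 5 lower, with a median of 0.12. The 20 include Col1a1, Col1a2 and Col3a1, which also count among the stroma markers. Of the 40 tested adaptor and focal adhesion genes, 25 were higher and 15 lower, with a median of 0.051. Among the tested genes of that list only Sharpin, whose product holds integrins inactive, had groups that did not overlap. It had 525.7, 577.6 and 524.7 in control and 503.3, 451.6 and 514.2 in NT3, with a log2 difference of -0.15 ± 0.11 and a limma adjusted p of 1.00. Over all genes tested, 3.33% were separated in that direction. Tnc and Fbln1 were the only other tested partner genes without overlap, both higher in NT3, as were 2.41% of all genes.

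**Figure D4:**
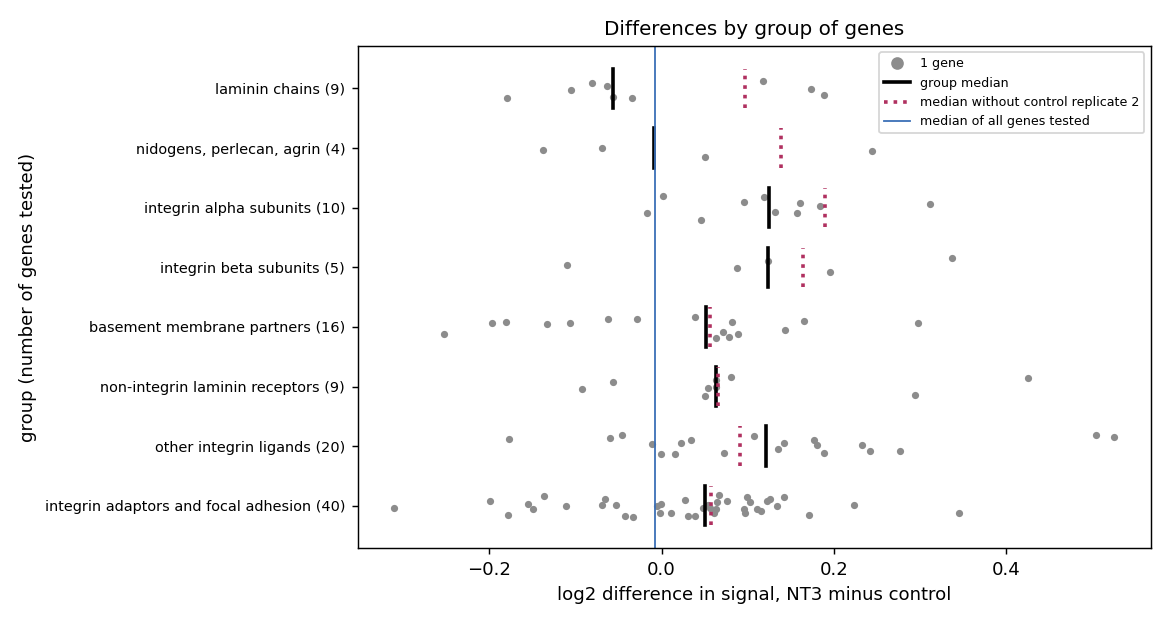
Log2 differences in signal, NT3 minus control, of the members by family and of the 4 lists of partner genes; each point is 1 gene, black bars are group medians, dotted bars medians without control replicate 2, and the blue line is the median of all genes tested. The laminin median lies below 0 with all arrays and above 0 without control replicate 2, while both integrin medians lie above 0 in each case.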

How the data were processed

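Expression was measured on 6 Affymetrix 1-colour arrays. The authors deposited linear signal intensities, 1 for each probe set of an array, made with MAS5 per the submitters' processing notes (version and scaling target: not given in the sources used here). A 2%-trimmed mean was 210.1 for each array. After 57 control probe sets were removed, signals were taken to log2 with a floor of 0.1, and the 18625 probe sets at or above the 40th percentile of mean log2 signal were tested. The groups were compared by limma (version 3.58.1, R 4.3.3; lmFit, then eBayes with an intensity trend; 2-sided; Benjamini-Hochberg over all probe sets, 0.05). The steps were tested on simulated data. Detection calls were not used, the number of arrays limits the precision, and most probe sets of this kind lie near the 3′ end of the transcript.

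Gene names came from the array annotation, and the RefSeq gene table of GRCr8 held all 36 member symbols. The 2 probe sets of Itgb3bp, which encodes no integrin, were left out. Members and lists were chosen with earlier results of these data known. Values by array are given for 16 members fixed by name, of which all were measured, for members with an unadjusted p under 0.05 or groups that did not overlap, and for the 3 largest differences in each direction; from each list, up to 4 genes by the same criteria or else the 2 with the lowest p. Lama3, Itga2b, Itga3 and the second probe sets described are given by array beyond this rule, chosen after their values were seen.

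Replicate numbers are shared between the groups in the titles. Deviations from the group means correlated at 0.230, 0.247 and 0.222 for the pairs numbered 1 to 3, each above 0.1, so that the numbers met the criterion used here for pairing, although the labels do not say what they mark. The reported fit has no block, as set in the design, and the block is an alternative. In the block fit without control replicate 2, NT3 replicate 2 has no partner and adds nothing. That fit rests on the pairs numbered 1 and 3. The alternatives were the replicate block, alone and without control replicate 2, quantile normalization, median centring, a filter at the 60th percentile or none, an offset of 16, no intensity trend, array weights, each array left out, the mean of all probe sets, and no probe sets with names that mark shared transcripts.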

Additional observations from a re-analysis of the deposited data

How the results depend on the processing

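Neither a member nor a partner gene was called under any of the 17 alternatives. Over the whole table, counted in 15 of them, the number of called probe sets was 0 in 14 and 4 with the replicate block and without control replicate 2. That last fit rests on the pairs numbered 1 and 3, as NT3 replicate 2 has no partner in it. The replicate block changed no member's call. The number of members with an unadjusted limma p under 0.05 was 1 with the block, 3 with the block and without control replicate 2, and 4 with array weights. It was 2 without control replicate 2, and 1 each with no filter, with the filter at the 60th percentile and without NT3 replicate 3. In the other alternatives it was 0. The median log2 difference of the members ranged from 0.026 to 0.16 and the number higher from 16 to 24 with single arrays left out. Of 20 members followed in the alternatives in which they were tested, 11 changed sign in at least 1. With single arrays left out the log2 difference ranged from -0.30 to 0.0100 for Lama1, -0.22 to 0.18 for Lama5, -0.078 to 0.052 for Lamb1, -0.22 to 0.11 for Lamb2, -0.057 to 0.22 for Nid1, -0.38 to 0.30 for Hspg2, -0.27 to 0.088 for Agrn and -0.061 to 0.25 for Itgb2. With the replicate block and without control replicate 2 it was 0.075 for Lama5, 0.061 for Lamb1, 0.16 for Lamb2, 0.27 for Hspg2, 0.0048 for Agrn and -0.14 for Itgb2. With array weights it was 0.12 for Lama5, 0.021 for Lamb1, 0.042 for Lamb2, 0.23 for Hspg2 and 0.0088 for Agrn. With the mean of all probe sets it was -0.036 for Lama4, 0.091 for Lamc1, -0.090 for Nid1 and -0.15 for Itgb5. The cause of these changes was not tested. Standard errors of the tested members ran from 0.087 to 0.31. The 8 members below the filter are given as levels without a test, apart from Lama3 and the range of log2 differences in the fit with no filter.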
